A study of Homo sapiens with 6 samples.

Results

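The mitochondrial ribosomal protein genes were taken as every protein-coding row of the deposited table whose name is MRPL or MRPS followed by a digit. This gave 78 of the 57819 rows, which carry 76 symbols: 48 rows with an MRPL name (large subunit, 47 symbols) and 30 with an MRPS name (small subunit, 29 symbols). The choice used names and gene type. Rows were tested where their mean over the 6 libraries was 10 normalized reads or more. This held for 75 of the 78, 46 of the large and 29 of the small subunit, and for 19048 rows of the whole table.

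The cells were IMR90 ER:Ras, human lung fibroblasts of an established line that carry oncogenic Ras joined to the hormone-binding domain of the estrogen receptor, a fusion that 4-hydroxytamoxifen (4OHT) switches on. Both groups received 200 nM 4OHT for 3 days, so the Ras fusion was active in both. Control cells were given a scrambled siRNA (siSCR) and knockdown cells siRNA directed at sin-lncRNA, a long noncoding RNA. Each group had 3 libraries of polyA RNA, read as single 50 bp reads. Whether a pool of siRNAs was used is not given in the labels. No independent knockdown is analysed here, so off-target effects cannot be told apart from loss of sin-lncRNA. Cells without 4OHT are not analysed here, and nothing in the labels says whether the libraries came from separate cultures, so p-values measure the spread between these libraries.

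Mitochondria keep their own ribosome, which translates the few messages of the mitochondrial genome into membrane subunits of the respiratory chain and the ATP synthase. Its RNAs come from the mitochondrial genome, whereas all of its proteins are encoded in the nucleus, made in the cytosol and imported. Some of these proteins descend from bacterial ribosomal proteins and bind conserved ribosomal RNA, and others are found only in mitochondria and coat the particle or tie it to the inner membrane.

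Reads in genes ran from 30271192 to 50913672 in the control libraries and from 22117324 to 27882280 in the knockdown libraries, so all 3 knockdown libraries had fewer reads than any control. Values are given as reads per 1000000 reads (RPM), on which 1 read is worth between 0.0199 and 0.0448 RPM. The targeted sin-lncRNA stood at 3.70, 4.73 and 4.09 RPM in the controls and at 0.493, 0.640 and 0.534 RPM in the knockdown libraries, or 13.3% of control. All 8 fibroblast markers were read, with a summed level of 15189 to 16371 RPM in control and 10692 to 11119 RPM in knockdown libraries. Markers of other cell types were low: 5 epithelial markers summed to 7.26 to 8.08 RPM in control and 5.60 to 6.40 RPM in knockdown libraries (KRT5 at 0), 3 endothelial markers to 1.70 to 1.90 and 2.29 to 2.71 RPM, and 4 blood cell markers to 0.0999 to 0.199 and 0.0896 to 0.356 RPM (HBB at 0). The fibroblast sum was lower in all 3 knockdown libraries, as were the ribosomal protein sums below, and its part in those results was not tested.

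Messages for mitochondrial ribosomal proteins were modestly lower after depletion of sin-lncRNA, in both subunits. Together the 78 rows took 2804, 2738 and 2896 RPM in control replicates 1, 2 and 3 and 2439, 2504 and 2570 RPM in knockdown replicates 1, 2 and 3. Every knockdown library was below every control, and the mean went from 2813 ± 79.2 to 2504 ± 65.3 RPM (SD, n = 3 each), which is 89.0% of control. In RNA from whole cultures, fewer cells of a kind and less RNA per cell cannot be told apart.

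Single genes were tested with limma on the deposited log2 values, with Benjamini-Hochberg adjustment over all 19048 genes and a call at an adjusted p under 0.05. Of the 75 genes tested, 29 fell, 2 rose and 44 did not pass the test. Over all genes tested, 23.5% fell and 17.5% rose, 41.0% in either direction. Over the 13002 protein-coding genes tested, 26.4% fell and 22.2% rose. For the mitochondrial ribosomal proteins the shares were 38.7% and 2.67%. The median log2 fold change was -0.13, beside -0.04 over all genes and -0.03 over protein-coding genes, and 59 of the 75 values were below 0. After removal of the trend of each library with GC content and transcript length, 27 fell and 7 rose. In that fit 3425 of 12937 protein-coding genes fell and 3360 rose. For the fits that follow, shares over all genes were not taken, so their counts cannot be set against the shares above. Without control replicate 3, the deepest library, 19 fell and 1 rose. With all libraries thinned to the smallest total, 27 fell and 1 rose.

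Most changes were small: 26 of the 75 genes had a log2 fold change under 0.1 in size, and 6 of those that fell were at 75% of control or less. In 34 genes all 3 knockdown libraries lay below all 3 controls and in 5 they lay above, while the groups overlapped in 36. The share of all genes tested with every knockdown library below every control was 28.5%, and the share above was 22.6%. Over protein-coding genes these shares were 30.5% and 27.1%. Of the 29 genes that fell, 28 had groups that did not overlap. The exception was MRPL12.

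**Figure D1:**
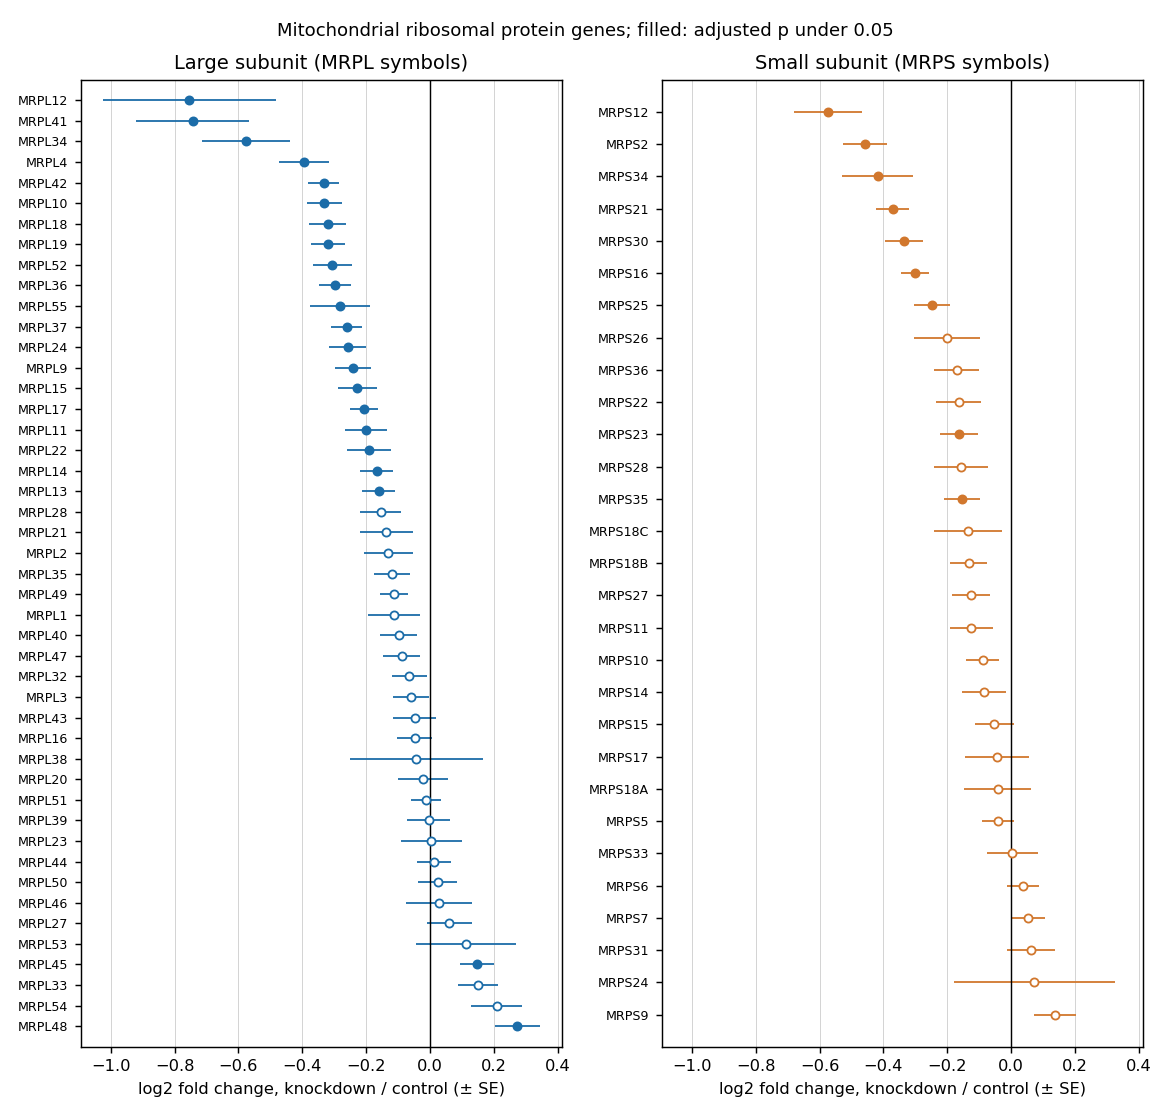
Log2 fold change of knockdown against control with its standard error (x axis) for the 46 large-subunit genes (left) and the 29 small-subunit genes (right) that passed the filter, in order of size. Filled points have an adjusted p under 0.05: 20 large-subunit and 9 small-subunit genes lie below 0, and MRPL45 and MRPL48 above it.

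Set side by side, the subunits moved by similar amounts in their medians and sums. In the large subunit 20 of 46 genes fell (43.5%) and 2 rose, with a median log2 fold change of -0.13. In the small subunit 9 of 29 fell (31.0%) and none rose, also with a median of -0.13. Over protein-coding genes 26.4% fell and over all genes 23.5%, so in this fit the small subunit's share of falls was near the background. Over protein-coding genes 22.2% rose. Large-subunit messages summed to 1795 ± 49.5 RPM in control and 1601 ± 45.0 RPM in knockdown libraries, 89.2% of control. Small-subunit messages summed to 1018 ± 29.7 and 903 ± 20.7 RPM, 88.7% of control. In neither subunit did the groups' sums overlap.

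The ratio of large- to small-subunit reads was 1.77, 1.76 and 1.76 in control replicates 1, 2 and 3 and 1.77, 1.76 and 1.79 in the knockdown libraries. These ranges overlap, so no shift between the subunits was seen beyond the spread of the libraries. With the GC and length trend removed the medians were -0.05 for the large and -0.09 for the small subunit. In that fit 15 of 46 large-subunit genes fell and 5 rose, and 12 of 29 small-subunit genes fell and 2 rose. The small subunit then had the larger share of falls, so the order of the subunits by this share depended on the fit. Structures of the human particle place MRPS18A and MRPS30 in the large subunit and leave MRPS36 out. Counted in that way, 21 of 48 large-subunit genes fell (43.8%) and 2 rose, and 8 of 26 small-subunit genes fell (30.8%). With 7 subunits of other names added, 21 of 49 large-subunit genes fell (42.9%) and 2 rose, and 10 of 33 small-subunit genes fell (30.3%).

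Proteins were also split by the ribosomal protein nomenclature, into those named after a bacterial counterpart (bacterial-type) and those with a mitochondrial name of their own (mitochondria-specific). Among the 45 genes for proteins of bacterial type 20 fell and none rose, with a median of -0.14, and among the 29 for mitochondria-specific proteins 9 fell and 2 rose, with a median of -0.10. MRPS36 is in neither class. In the large subunit 16 of 29 bacterial-type genes fell (median -0.17), against 4 of 17 mitochondria-specific genes, where 2 rose (median -0.01, or 0.06 with the GC and length trend removed). In the small subunit 4 of 16 bacterial-type genes (median -0.09) and 5 of 12 mitochondria-specific genes fell (median -0.16). As shares these are 55.2% and 23.5% in the large and 25% and 41.7% in the small subunit, beside 26.4% of protein-coding and 23.5% of all genes, so the mitochondria-specific genes of the large and the bacterial-type genes of the small subunit were at the background. The difference between classes was not tested.

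Among bacterial-type genes whose groups did not overlap, MRPL34 and MRPS12 had the most negative fold changes. MRPS12 (ENSG00000128626.7, chr19:39421188-39423802 in hg19) encodes the protein of the decoding centre whose bacterial counterpart is the site of streptomycin resistance. It was read at 44.6, 36.2 and 46.1 RPM in control replicates 1, 2 and 3 and at 24.3, 30.7 and 30.1 RPM in knockdown replicates 1, 2 and 3. All 3 knockdown libraries lay below the lowest control, and the log2 fold change was -0.57 ± 0.11 (limma, SE, adjusted p = 0.00139). Its row overlaps SARS2, the mitochondrial seryl-tRNA synthetase gene, on the other strand.

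MRPS2, a small-subunit protein that spans the head and body, was read at 39.2, 34.7 and 38.1 RPM in control and 25.5, 29.2 and 26.9 RPM in knockdown libraries. The groups did not overlap, with a log2 fold change of -0.46 ± 0.07 (limma, SE, adjusted p = 0.000378), or -0.27 after removal of the GC and length trend. MRPS21, a small-subunit protein of the platform, stood at 58.2, 57.8 and 57.0 RPM in control and 43.3, 43.2 and 47.3 RPM in knockdown libraries. Its controls lay close together, all above the knockdown libraries, and its log2 fold change was -0.37 ± 0.05 (limma, SE, adjusted p = 0.000237). Its 7 pseudogenes had 14.7% as many reads as MRPS21 itself, and reads of near-identical copies could be counted for either.

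In the large subunit, MRPL34, a small basic protein buried in ribosomal RNA, was read at 33.5, 25.3 and 33.7 RPM in control and 17.3, 25.3 and 19.7 RPM in knockdown libraries. Control replicate 2 and knockdown replicate 2 were nearly equal, so the groups were only just separate. The log2 fold change was -0.58 ± 0.14 (limma, SE, adjusted p = 0.00667), and in a fit without an intensity trend the adjusted p was 0.0543. MRPL4, a protein that lines the exit tunnel, was at 34.5, 28.3 and 34.0 RPM in control and 23.7, 25.7 and 24.0 RPM in knockdown libraries. All knockdown values were below the controls, with a log2 fold change of -0.40 ± 0.08 (limma, SE, adjusted p = 0.00232) that came to -0.17 after removal of the GC and length trend.

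The stalk, the mobile arm of the large subunit that recruits the translation factors, is formed by MRPL12 on a base that holds MRPL10. MRPL10 was read at 49.1, 48.8 and 50.0 RPM in control and 37.5, 38.3 and 41.9 RPM in knockdown libraries. The groups were well apart, with a log2 fold change of -0.33 ± 0.06 (limma, SE, adjusted p = 0.000738). MRPL12, which was singled out after its values were seen, had the most negative fold change of all members but the noisiest values among those that fell: 20.6, 10.9 and 19.2 RPM in control and 6.36, 13.7 and 10.3 RPM in knockdown libraries. Knockdown replicate 2 lay above control replicate 2.

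For MRPL12 the log2 fold change was -0.75 ± 0.27 (limma, SE, adjusted p = 0.0455). It was -0.58 without control replicate 1, -1.04 without control replicate 2, -0.63 without control replicate 3, -0.46 without knockdown replicate 1, -1.01 without knockdown replicate 2 and -0.80 without knockdown replicate 3. Of these, the values without control replicate 2 and without knockdown replicate 2 passed the threshold. MRPL12 shares its strand and part of its position with SLC25A10, so reads of the overlap cannot be assigned to either gene.

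Among mitochondria-specific proteins, MRPL41 (ENSG00000182154.7, chr9:140445651-140447007 in hg19), a large-subunit protein, fell furthest. It was read at 49.0, 27.1 and 40.6 RPM in control and 19.2, 25.4 and 23.5 RPM in knockdown libraries. Control replicate 2 was close to the knockdown libraries and the other controls were far above them. The log2 fold change was -0.74 ± 0.18 (limma, SE, adjusted p = 0.00641). It came to -0.44 after removal of the GC and length trend, and the adjusted p missed the threshold with robust variance moderation and without an intensity trend, reaching 0.0847.

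MRPS34, a small-subunit protein mutated in Leigh syndrome, was read at 69.6, 55.9 and 73.6 RPM in control and 42.0, 54.0 and 53.0 RPM in knockdown libraries. The groups were separate, again with control replicate 2 the lowest control. Its log2 fold change was -0.42 ± 0.11 (limma, SE, adjusted p = 0.0112), was -0.18 after removal of the GC and length trend and was -0.34 without control replicate 3. The call was lost without that library (0.0548), with robust variance moderation (0.0599) and without an intensity trend (0.0728, all limma adjusted p).

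MRPS30 and MRPL42 had tighter values. MRPS30, named after the small subunit but placed in the large one by structures, stood at 31.3, 29.3 and 31.2 RPM in control and 23.4, 24.2 and 25.1 RPM in knockdown libraries. MRPL42, also of the large subunit, stood at 59.3, 61.5 and 60.4 RPM in control and 49.6, 48.2 and 46.1 RPM in knockdown libraries. In both genes the groups were clearly apart, with log2 fold changes of -0.34 ± 0.06 for MRPS30 and -0.33 ± 0.05 for MRPL42 (limma, SE, adjusted p = 0.000958 and 0.00033). Unlike those of MRPL41 and MRPS34, their values were larger in size after removal of the GC and length trend, at -0.42 for MRPS30 and -0.48 for MRPL42. That removal used the longest transcript, of 4331 bases for MRPS30 and 15582 for MRPL42. Their principal transcripts have 1678 and 920 bases, and which transcripts these cells use was not tested.

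Under 20 other fits, which changed the offset, filter, scaling, test, depth or libraries used, 14 genes fell in every one: MRPL4, MRPL10, MRPL17, MRPL18, MRPL19, MRPL37, MRPL42, MRPL52, MRPS2, MRPS12, MRPS16, MRPS21, MRPS25 and MRPS30. MRPS16, a bacterial-type small-subunit protein, shows how steady these could be: 73.5, 71.5 and 73.5 RPM in control and 60.2, 58.8 and 58.5 RPM in knockdown libraries. Its log2 fold change was -0.30 ± 0.04 (limma, SE, adjusted p = 0.000332). The row of MRPS16 overlaps DNAJC9 on the same strand and DNAJC9-AS1 on the other. Its 3 pseudogenes had 8.63% as many reads as MRPS16 itself.

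The other 18 genes that fell stood at 79.97 to 89.9% of control, with log2 fold changes of -0.32 to -0.15. They hold 14 genes of the large subunit, namely MRPL9, MRPL11, MRPL13, MRPL14, MRPL15, MRPL17, MRPL18, MRPL19, MRPL22, MRPL24, MRPL36, MRPL37, MRPL52 and MRPL55. The other 4, MRPS16, MRPS23, MRPS25 and MRPS35, belong to the small subunit. MRPL18, a bacterial-type protein of the central protuberance, was at 44.0, 48.0 and 49.0 RPM in control and 37.9, 38.7 and 36.2 RPM in knockdown libraries. MRPL37, a mitochondria-specific protein, was at 89.9, 86.7 and 93.3 RPM and 72.4, 77.5 and 75.4 RPM. MRPS25, another of this kind, was at 42.1, 41.9 and 41.9 RPM and 36.04, 33.1 and 37.0 RPM. In all 3 genes the highest knockdown library was well below the lowest control.

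At the weak end of the calls, MRPL11, MRPL12, MRPL22, MRPL55, MRPS23 and MRPS35 had adjusted p-values between 0.0320 and 0.0475 in limma, and each lost its call in several other fits. MRPL22, which lines the exit tunnel beside MRPL4, went from 21.7 ± 0.827 to 19.0 ± 1.31 RPM (SD, n = 3). MRPS23 went from 41.2 ± 2.07 to 36.8 ± 1.78 RPM and MRPS35 from 50.1 ± 2.27 to 45.1 ± 2.01 RPM.

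**Figure D2:**
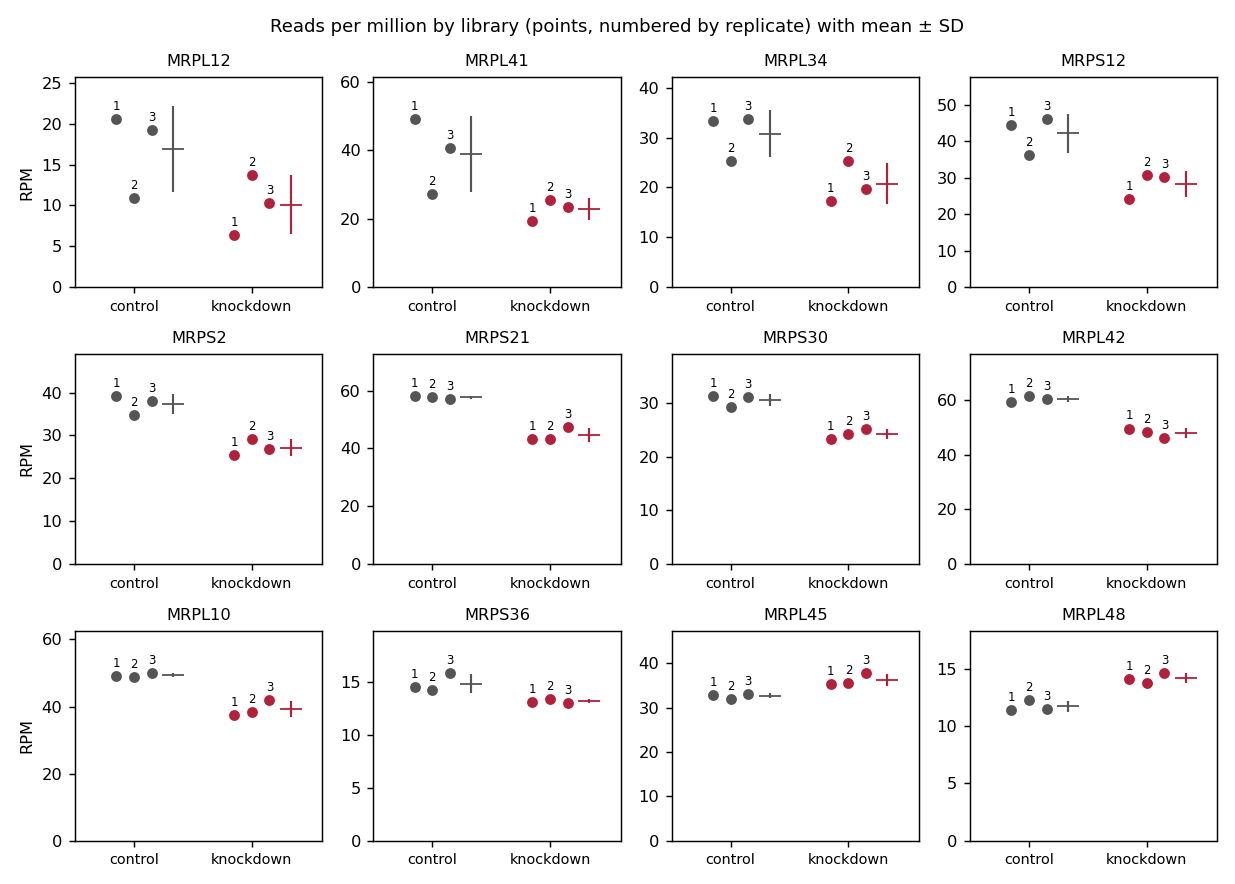
RPM (y axis, from 0) of 12 mitochondrial ribosomal protein genes in each library, numbered by replicate, with the mean and SD of each group of 3 beside the points. Control replicate 2 sits near the knockdown libraries for MRPL12, MRPL41 and MRPL34, whereas the groups of MRPS21, MRPS30, MRPL42 and MRPL10 are tight and apart.

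The members that rose were both mitochondria-specific proteins of the large subunit. MRPL48, a protein of the central protuberance, was read at 11.4, 12.3 and 11.5 RPM in control and 14.1, 13.8 and 14.6 RPM in knockdown libraries. All knockdown libraries were above the highest control, with a log2 fold change of 0.27 ± 0.07 (limma, SE, adjusted p = 0.00951), and the call held in all 20 other fits. Its single pseudogene had 15.9% as many reads as MRPL48 itself.

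MRPL45, which lies at the exit of the tunnel and tethers the ribosome to the inner membrane, was read at 32.9, 32.0 and 33.2 RPM in control and 35.2, 35.6 and 37.8 RPM in knockdown libraries. The groups did not overlap, but the step was small, with a log2 fold change of 0.15 ± 0.05 (limma, SE, adjusted p = 0.0469). The call was lost in 9 of 20 other fits. These left out control replicate 1 (0.15), control replicate 2 (0.13), control replicate 3 (0.16), knockdown replicate 2 (0.16) or knockdown replicate 3 (0.12), or changed the filter, the trend, the depth or the model. The 2 pseudogenes of MRPL45 had 17.5% as many reads as MRPL45 itself.

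Outside the calls, MRPL54, MRPL33 and MRPS9 also had every knockdown library above every control. MRPL54 was at 17.8, 20.7 and 20.7 RPM in control and 21.7, 22.1 and 24.7 RPM in knockdown libraries (limma adjusted p = 0.0562). MRPL33 had a log2 fold change of 0.15 and MRPS9 of 0.14. On the other side, MRPS36, MRPS18B, MRPL35, MRPL49, MRPL40 and MRPS10 had every knockdown library below every control without a call.

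At the highest level per length were large-subunit genes. RPM per kilobase of the principal transcript (RPKM) came to 99.2 in control and 80.6 in knockdown libraries for MRPL36, a zinc-binding protein and one of the smallest ribosomal proteins. They came to 98.4 and 88.6 for MRPL28 and to 69.0 and 58.8 for MRPL15, both bacterial-type proteins. MRPL36 fell, with 60.0, 56.8 and 57.8 RPM in control and 47.1, 45.9 and 49.0 RPM in knockdown libraries. That step was -0.30 ± 0.05 on the log2 scale (limma, SE, adjusted p = 0.000716) and -0.05 after removal of the GC and length trend, no longer past the threshold.

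MRPL15 fell by 0.23 on the log2 scale (limma adjusted p = 0.0116), a call lost without control replicate 3 (-0.19) and in a fit without an intensity trend (adjusted p = 0.0609). After removal of the GC and length trend the value was -0.14. MRPL28 was at 88.3, 82.0 and 85.2 RPM in control and 71.1, 74.6 and 84.2 RPM in knockdown libraries. Its groups overlapped through knockdown replicate 3, and the log2 fold change of -0.15 missed the threshold (limma adjusted p = 0.0720). Without that library it was -0.22 and passed, and after removal of the GC and length trend its direction turned, to 0.040 (limma adjusted p = 0.656).

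In the small subunit the highest RPKM values were those of MRPS34, at 64.8 in control and 48.5 in knockdown libraries, MRPS6, at 54.4 and 55.9, and MRPS15, at 51.4 and 49.5. MRPS6, a platform protein, was at 55.7, 52.1 and 53.8 RPM in control and 53.2, 55.2 and 57.6 RPM in knockdown libraries. MRPS15, a protein that binds the small ribosomal RNA early in assembly, was at 50.4, 48.8 and 56.1 RPM and 47.9, 50.2 and 51.4 RPM. Neither pair of groups was separate, with log2 fold changes of 0.04 ± 0.05 and -0.05 ± 0.06 (SE). Of the 3 genes with the highest RPKM in each subunit, MRPL36, MRPL15 and MRPS34 passed the test.

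The smallest change in each subunit belonged to MRPL23, a protein at the rim of the exit tunnel, and to MRPS33. MRPL23 was at 26.9, 21.2 and 24.8 RPM in control and 22.3, 23.8 and 26.9 RPM in knockdown libraries. MRPS33 was at 18.5, 18.1 and 19.4 RPM in control and 19.5, 16.6 and 20.3 RPM in knockdown libraries. Both groups were mixed, with log2 fold changes of 0.00 ± 0.10 and 0.00 ± 0.08 (SE). After removal of the GC and length trend MRPL23 was 0.21 and passed the test upward.

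The 3 genes named MRPS18 are all related to the bacterial protein bS18, and their products sit at different places in the particle. MRPS18C has the bacterial name in the nomenclature, and MRPS18A and MRPS18B have mitochondrial names and are counted as mitochondria-specific. MRPS18A, placed in the large subunit by structures, was at 11.7, 10.2 and 11.2 RPM in control and 9.10, 11.5 and 11.6 RPM in knockdown libraries. MRPS18B was at 41.1, 45.4 and 46.0 RPM in control and 40.4, 40.8 and 39.4 RPM in knockdown libraries. MRPS18C was at 7.02, 5.83 and 7.27 RPM and 5.92, 5.93 and 6.38 RPM.

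None of the MRPS18 genes passed the test, with log2 fold changes of -0.04 ± 0.11, -0.13 ± 0.06 and -0.13 ± 0.11 (SE) in the order A, B, C. MRPS18B alone had groups that did not overlap, and it was -0.18 and passed without control replicate 1, but -0.034 (limma adjusted p = 0.637) after removal of the GC and length trend. Per length, MRPS18B was the highest of the 3, at 28.8 RPKM in control libraries beside 10.4 for MRPS18A and 4.08 for MRPS18C.

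MRPS36 carries a ribosomal name but its product, KGD4, is a part of the 2-oxoglutarate dehydrogenase complex. It was at 14.5, 14.2 and 15.9 RPM in control and 13.1, 13.4 and 13.0 RPM in knockdown libraries. All knockdown values were below the controls, the log2 fold change was -0.17 ± 0.07 (SE), and the limma adjusted p of 0.0758 missed the threshold. After removal of the GC and length trend the value was -0.19 and passed. Its 5 pseudogenes had 52.0% as many reads as the gene itself.

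Promoter sequences are shown for a few members picked because they hold a match, some that fell and some that did not pass the test. MRPL41, MRPL34, MRPS12, MRPS2, MRPL4 and MRPS21, which also fell, hold no match and are not shown. RefSeq windows on GRCh38.p14, from 250 bases before to 50 bases after the gene start, were matched for 67 of the 76 symbols. They were searched on both strands for CCGGAAGT (core of the ETS family, to which GABPA belongs), GCGCATGCG (core of NRF1, a regulator of nuclear genes for mitochondria) and AAGATGGCG (core of YY1). The stretches below run from 100 bases before the start to 30 bases after it, in the direction of transcription, with matches in capitals.
MRPL42, chr12:93467414-93467543, plus strand: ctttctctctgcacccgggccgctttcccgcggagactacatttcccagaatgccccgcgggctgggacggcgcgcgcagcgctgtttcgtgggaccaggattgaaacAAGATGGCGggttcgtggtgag
MRPS30, chr5:44808847-44808976, plus strand: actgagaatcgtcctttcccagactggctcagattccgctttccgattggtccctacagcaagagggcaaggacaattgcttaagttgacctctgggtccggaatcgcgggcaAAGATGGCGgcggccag
MRPS10, chr6:42217832-42217961, minus strand: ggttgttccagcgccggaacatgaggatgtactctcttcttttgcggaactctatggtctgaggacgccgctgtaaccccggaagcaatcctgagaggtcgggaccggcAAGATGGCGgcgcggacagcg
MRPS18A, chr6:43687762-43687891, minus strand: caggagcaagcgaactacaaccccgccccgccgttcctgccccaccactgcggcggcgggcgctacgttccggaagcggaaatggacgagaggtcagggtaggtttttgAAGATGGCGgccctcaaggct
MRPL17, chr11:6683311-6683440, minus strand: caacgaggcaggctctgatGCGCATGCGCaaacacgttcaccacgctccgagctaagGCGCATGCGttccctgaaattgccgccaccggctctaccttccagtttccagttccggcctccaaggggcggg
MRPS34, chr16:1773105-1773234, minus strand: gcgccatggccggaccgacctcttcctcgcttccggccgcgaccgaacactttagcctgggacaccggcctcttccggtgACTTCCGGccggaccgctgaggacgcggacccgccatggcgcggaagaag

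MRPL42 and MRPS30, which fell, and MRPS10 and MRPS18A, which did not pass the test, carry the YY1 letters at nearly the same place, beginning 9, 14, 10 and 10 bases into the transcript. MRPL17 holds the NRF1 letters 3 times, of which a pair overlaps, on opposite strands and offset by 1 base, and MRPS34 holds the ETS letters on the strand opposite to transcription. MRPL17 was at 86.8, 82.9 and 87.0 RPM in control and 74.8, 73.0 and 74.5 RPM in knockdown libraries. These groups were apart, with a log2 fold change of -0.21 ± 0.04 (limma, SE, adjusted p = 0.00334).

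Over the 66 tested members with a window, 13 held the YY1 letters (19.7%), 11 the ETS letters (16.7%) and 3 the NRF1 letters (4.55%). Over all 35116 RefSeq windows the shares were 1.75%, 4.14% and 1.92%, and over windows of protein-coding genes tested 3.28%, 7.12% and 3.01%. Any of the 3 was found in 24 members (36.4%), beside 12.5% of windows of protein-coding genes tested and 7.33% of all windows. Members count with 1 window each. The 13002 protein-coding genes tested have 14501 windows, so shares per gene are set beside shares per window. Among the 26 members with a window that fell, 5 held the YY1, 2 the ETS and 2 the NRF1 letters, and among the other 40 the numbers were 8, 9 and 1. A match is a match of letters and no measurement of binding, and the windows were placed by RefSeq starts, not by starts used in these cells.

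GC content moved with the fold changes. Across the 75 genes tested, Pearson's r between the log2 fold change and the GC content of the longest transcript was -0.37 (Spearman's rho -0.25). These genes share libraries and depth. Over 12937 protein-coding genes r was -0.21. Of the 37 members above the median GC content of 47.6%, 18 fell (48.6%) and none rose (median -0.17). Of the 38 at or below it 11 fell (28.9%) and 2 rose (median -0.09). The latter share of falls was near the 26.4% of protein-coding genes.

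Single libraries differed along the same axis. Each library's deviation from the mean of all 6 libraries was correlated with GC content across members. In control replicates 1, 2 and 3 r was 0.57, -0.26 and 0.23. In knockdown replicates 1, 2 and 3 it was -0.50, 0.02 and -0.19. That mean holds both groups, so the difference between the groups is part of these values. Control replicate 2 was the lowest control in 24 of the 37 GC-rich members and in 15 of the 38 others. Of the 29 genes that fell, 23 also fell after removal of the trend, and MRPL9, MRPL11, MRPL14, MRPL24, MRPL36 and MRPL55 no longer did. The genes that then rose, beside MRPL45 and MRPL48, were MRPL23, MRPL33, MRPL54, MRPS7 and MRPS9.

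**Figure D3:**
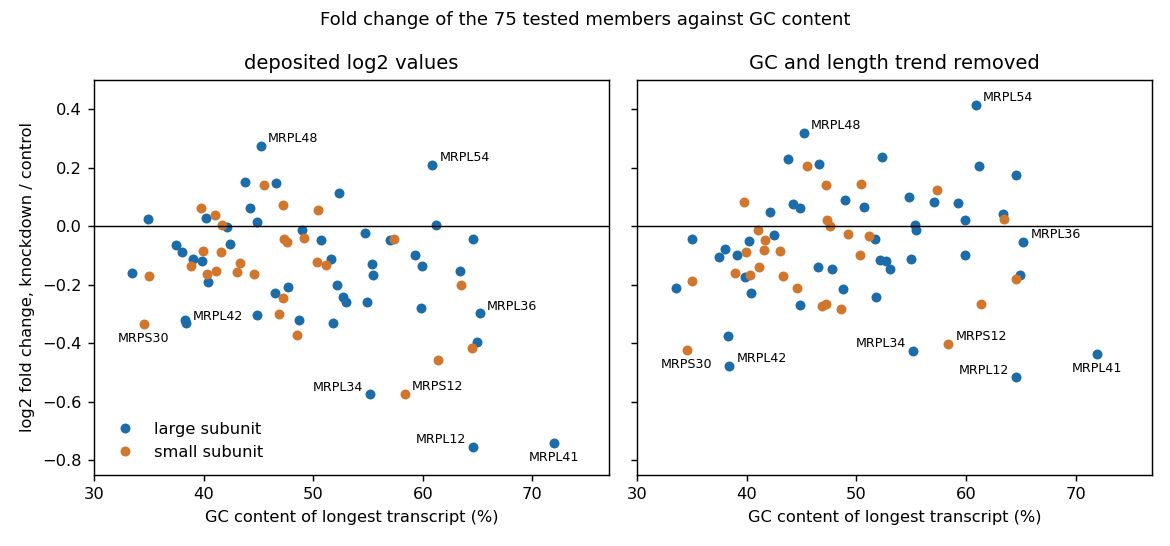
Log2 fold change (y axis) of the 75 members tested against the GC content of the longest transcript in percent (x axis), from the deposited log2 values (left) and after removal of each library's GC and length trend (right). On the left the GC-rich genes MRPL12, MRPL41, MRPL34 and MRPS12 lie lowest. On the right MRPL36 is close to 0 and MRPL42 and MRPS30 lie lower than before.

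A few members could not be read reliably. MRPL30 has 2 rows, which overlap on the same strand and had at most 4 reads in any library, and MRPS17 has a second row with at most 3 reads. These 3 rows were not tested. MRPS24, which passed the filter narrowly at 0.441, 0.533 and 0.556 RPM in control and 0.493, 0.598 and 0.499 RPM in knockdown libraries, had 11 to 28 reads a library. MRPL38 at 1.58 ± 0.423 RPM and MRPL53 at 2.57 ± 0.467 RPM in control (SD, n = 3) were the next lowest. All 3 overlap another gene on the same strand, MRPS24 with URGCP-MRPS24, MRPL38 with FBF1 and MRPL53 with CCDC142, and the part of this overlap in their low values was not tested.

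Overlap with other genes and copies elsewhere limits the rest. Of the 75 genes, 45 overlap another gene in the table, and 14 of these fell (31.1%) and 1 rose. Of the 30 without an overlap 15 fell (50%) and 1 rose, beside 26.4% of protein-coding genes that fell. The table also lists 66 pseudogenes of members, 44 of them with reads, which together held 2.79 to 3.17% as many reads as the members in each library. For 11 members the pseudogenes had over 5% of the member's reads, among them MRPL3, with 31.0%.

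Of 7 subunits that carry other names, GADD45GIP1 (mL64) and CHCHD1 (mS37) fell and none rose. This share, 28.6%, is near the 26.4% of protein-coding genes that fell. CHCHD1 was at 28.9, 27.0 and 30.2 RPM in control and 22.8, 23.5 and 24.0 RPM in knockdown libraries, with groups apart and a log2 fold change of -0.29 ± 0.06 (limma, SE, adjusted p = 0.00317). DAP3, the large GTP-binding protein of the small subunit's head, had a log2 fold change of 0.05 and did not pass the test.

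Of 13 factors that help the ribosome translate 4 fell and none rose, with a median log2 fold change of -0.12. Their share of falls, 30.8%, is also near that of protein-coding genes, 26.4%. TUFM, the elongation factor that brings aminoacyl-tRNA to the ribosome, was at 157, 156 and 163 RPM in control and 124, 132 and 132 RPM in knockdown libraries. Its groups were apart, at -0.29 ± 0.04 (limma, SE, adjusted p = 0.000367), and TSFM, which recycles it, fell by 0.28.

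TACO1, an activator of the translation of MT-CO1, fell furthest in this list, by 0.47, and MTFMT, which formylates the initiator methionyl-tRNA, fell by 0.30. The initiation factor MTIF3 had a log2 fold change of 0.14 and did not pass the test.

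Of 28 genes for ribosome assembly and ribosomal RNA modification, 11 fell (39.3%, beside 26.4% of protein-coding genes) and none rose, with a median of -0.11. ERAL1, a GTPase that chaperones the small ribosomal RNA, was at 43.2, 46.6 and 45.6 RPM in control and 26.7, 23.4 and 25.1 RPM in knockdown libraries. The groups were far apart, with a log2 fold change of -0.85 ± 0.06 (limma, SE, adjusted p = 2.62e-06), which is larger in size than that of any mitochondrial ribosomal protein gene tested. RCC1L, an assembly factor, fell from 31.2 ± 1.26 to 19.1 ± 1.14 RPM and MRM1, a methyltransferase of the large ribosomal RNA, from 6.74 ± 0.475 to 4.14 ± 0.419 RPM (SD, n = 3).

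The ribosomal RNAs themselves, transcribed in the mitochondrion, moved the other way in these polyA libraries. MT-RNR2, the large ribosomal RNA, was at 3090, 3280 and 3204 RPM in control and 5052, 5159 and 4983 RPM in knockdown libraries. MT-RNR1, the small one, was at 623, 625 and 609 RPM in control and 715, 695 and 739 RPM. Both rose, by 0.67 ± 0.04 and 0.21 ± 0.04 on the log2 scale (limma, SE, adjusted p = 1.14e-06 and 0.00158). Of the 13 protein-coding genes of the mitochondrial genome 6 rose (46.2%), MT-ND1 furthest at 0.40, and none fell. Over protein-coding genes 22.2% rose and over all genes 17.5%. Of those 6, MT-ND4L and MT-ND6 had groups that overlapped. PolyA selection captures mitochondrial ribosomal RNA only in part, so these levels are not those of all ribosomal RNA.

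**Figure D4:**
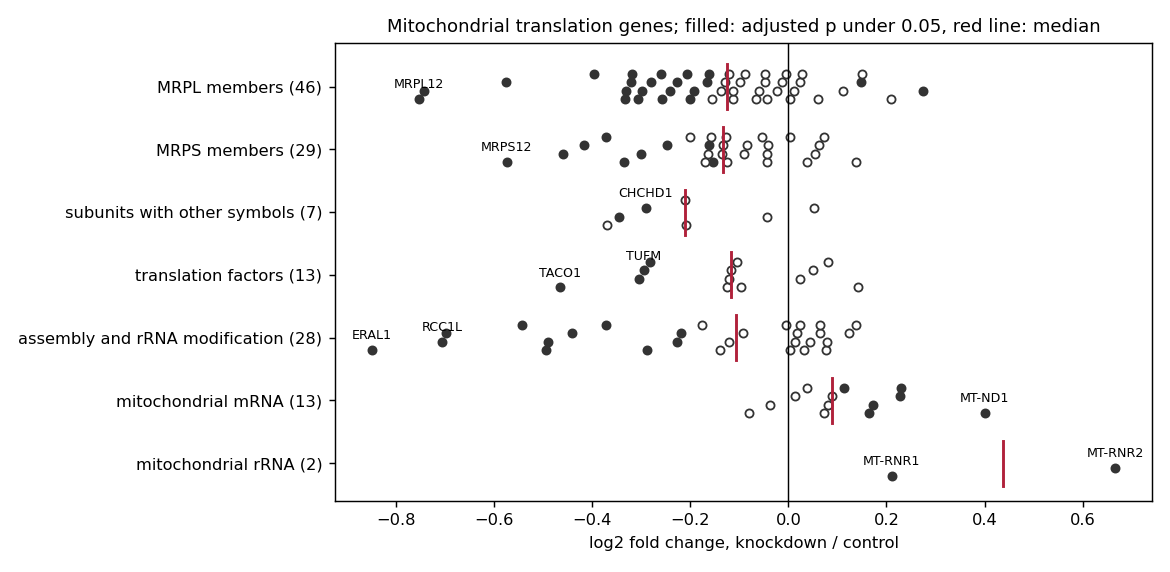
Log2 fold change (x axis) of genes of mitochondrial translation by list, 1 point per gene, filled where the adjusted p was under 0.05, with a red line at each list's median. ERAL1, at -0.85, lies furthest left and MT-RNR2, at 0.67, furthest right.

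For comparison, of 83 cytosolic ribosomal protein genes tested 34 fell (41.0%) and 1 rose, with a median log2 fold change of -0.13. In the mitochondrial set 38.7% fell, also with a median of -0.13. Over protein-coding genes 26.4% fell and 22.2% rose. In 51.8% of the cytosolic and 45.3% of the mitochondrial genes all 3 knockdown libraries lay below all 3 controls, beside 30.5% of protein-coding genes. By these values the fall was similar in both sets and not particular to the mitochondrial one. Cytosolic ribosomal protein messages went from 22534 ± 640 to 20567 ± 574 RPM, 91.3% of control. The difference between the mitochondrial and the cytosolic set was not tested.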

How the data were processed

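PolyA RNA of 3 control and 3 knockdown libraries was compared. The authors deposited 1 table of log2 values. Undoing an offset of 0.5 reads and an effective library size gave whole reads for 100% of values (tolerance 0.01), so the values are log2 of reads plus 0.5 per 1000000. Reads came from Bowtie2 and featureCounts on hg19, per the submitters' processing notes. Their versions and the strand setting are not given in the sources used here, so genes that overlap others are uncertain. Groups and replicate numbers came from the sample titles, and columns were matched by siRNA name and replicate number. What the suffix of the knockdown siRNA in the column headers stands for is not given in the sources used here.

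The design had assumed linear values and a pseudocount of 1. Because the deposited values are log2 already, they went unchanged into limma 3.58.1 under R 4.3.3 (lmFit, eBayes with an intensity trend, group only, two-sided), and fold changes of genes with few reads are understated. RPM are recovered reads over the effective size. Where a library has 0 reads of a gene, counting error alone leaves room for 3, which is 0.0596 to 0.134 RPM by library. Replicates differed by more than sampling noise (chi-square per degree of freedom 2.83 to 11.1). An exact permutation test of 3 libraries against 3 cannot go below p = 0.1, and genes with separate groups reach that value by construction, so it is not printed per gene. The fit was tested on simulated counts.

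The members and lists were chosen with earlier results of these data known. Named were the members with the 10 largest falls and rises among those called with groups that do not overlap, the smallest change in each subunit, the 3 highest levels per length in each, the MRPS18 genes, MRPS30 and MRPS36, and the 3 largest called changes of each other list. MRPL12, MRPL17, MRPS10, MRPS16, MRPL54 and other genes outside it were added after their values were seen. GC content and length came from the longest GENCODE 29 transcript of each gene, matched for all 78 rows (76 by ID, the others by symbol). This can differ from the transcript used in these cells. The GC and length trend (loess, span 0.3) was removed in each library, with values for 98.4% of genes tested. Other alternatives were the offset, filter, scaling, test, threshold, depth, each library left out, and the replicate block.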

Additional observations from a re-analysis of the deposited data

How the results depend on the processing

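Of 234 values of counts and medians under other settings, 204 stayed within 1.5 times the count or within the spread of the libraries, and no median among them changed sign. Where a value moved, the cause was not tested. With the GC and length trend removed, 7 members rose in place of 2, and the medians were -0.082 over all members, -0.052 for the large subunit, -0.090 for the small subunit and -0.043 for mitochondria-specific proteins. Under quantile normalization 4 rose, and these medians were -0.091, -0.089, -0.091 and -0.051. Scaling by library totals also gave 4 that rose. The strictest test for these genes was the fit without an intensity trend, in which 18 members fell and 1 rose (12 of the large subunit, 13 bacterial-type and 5 mitochondria-specific fell). At an adjusted p under 0.01, 19 fell and 1 rose, with 13 of the large subunit and 13 of bacterial type. Without a filter 1 rose, and 1 rose with all libraries thinned to the smallest total, where 27 fell. Shares over all genes were taken only for the main fit and the fit with the GC and length trend removed.

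Leaving out single libraries gave 19 to 29 members that fell and 1 to 3 that rose. For the large subunit 13 to 21 fell and for bacterial-type proteins also 13 to 21, each lowest without control replicate 3, the deepest library.

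With the replicate number as a block, 21 fell and 1 rose. Both groups use the same replicate numbers, but the labels do not say whether libraries of the same number were paired. Deviations of same-numbered libraries from their group means correlated at -0.15, -0.18 and 0.07. With 3 libraries a group these values cannot decide it.

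Members near 0 changed sign. MRPL23 was -0.026 in thinned libraries and had values of -0.091 to 0.082 when single libraries were left out. MRPS33 was -0.011 thinned, -0.048 with the GC and length trend removed, and -0.053 to 0.088 in leave-one-out fits. In leave-one-out fits MRPS15 had values of -0.093 to 0.0056 and MRPS18A of -0.10 to 0.073. With the GC and length trend removed, MRPL28 was 0.040, MRPS6 -0.013 and MRPS18A 0.12. No other member named by the rule changed sign in any fit.

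MRPS24, MRPL38 and MRPL53 had few reads, and no difference was detectable in them at that number of reads. All knockdown libraries were shallower than the controls, so depth and group cannot be told apart except by thinning.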
